A study of Homo sapiens with 6 samples.

Results

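LIN28A, LIN28B, HMGA1, HMGA2, IGF2BP1, IGF2BP2 and IGF2BP3 are oncofetal genes, active in the embryo, quiet in most adult tissues and active again in many tumors. The 7 genes were taken by symbol from a table of 34811 genes, and all 7 passed the filter on low counts that left 17309 genes to be tested. They were compared between OV3/COX1KD and OV3/SCR cells. Both are stable clones of OVCAR-3, an established human ovarian carcinoma line, selected with puromycin and grown in RPMI-1640 with fetal bovine serum. OV3/COX1KD cells carry an shRNA against COX-1, the cyclooxygenase encoded by PTGS1, and OV3/SCR cells carry a scrambled shRNA on the same pRS background. RNA-seq covered 3 passages of 1 clone per condition, so the knockdown and the difference between 2 clones cannot be told apart, and the p-values measure the spread between passages.

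LIN28A and LIN28B are RNA-binding proteins that bind precursors of the let-7 microRNAs and hold back their maturation. Mature let-7 guides Argonaute proteins to matching sites in the 3′ UTRs of messages, and LIN28B, HMGA2 and IGF2BP1 are among its best known targets. HMGA1 and HMGA2 are chromatin proteins that bind AT-rich DNA in the minor groove and change how transcription factors gain access to it. The IGF2BP proteins bind messages such as IGF2, MYC, CD44 and ACTB and affect their stability, place and translation. Mature let-7 and protein were not analysed here.

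The counts were raw reads per gene. Library totals were 25291505 to 27391538, and 3 counts, taken as the smallest detectable level, corresponded to 0.113 to 0.120 CPM (counts relative to the library total after TMM scaling; the floor covers counting error only). PTGS1 had 713, 658 and 641 counts in OV3/SCR replicates 1, 2 and 3 and 456, 486 and 501 in OV3/COX1KD replicates 1, 2 and 3. It remained at 73.3% of the OV3/SCR level (log2 fold change −0.45, SE 0.057, FDR 1.35e-06 by edgeR's quasi-likelihood test). This is the level of the mRNA. The authors also reported a significant fall of COX-1 mRNA by RNA-seq, verified by quantitative RT-PCR. By Western blot they reported a robust loss of COX-1 protein in the knockdown clone. All 10 markers of ovarian carcinoma epithelium were tested, and 8 were higher and 2 lower, among them PAX8 with a log2 fold change of −0.76. Markers of other cell types were scarce. The 6 fibroblast markers summed to 10.9 to 11.6 CPM in OV3/SCR and 6.72 to 7.43 CPM in OV3/COX1KD, the 5 leukocyte markers to 1.16 to 1.38 and 0.676 to 1.44 CPM, and the 2 endothelial markers to 0.998 to 1.59 and 1.36 to 1.95 CPM. Of the 3 fibroblast markers that could be tested, COL1A1 was lower, at −0.77, and 2 had no call, with log2 fold changes of −0.51 and −0.0074. Their part in the changes of the 7 genes was not tested.

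The sequence that ties the 7 genes to let-7 is the seed, bases 2 to 8 of the microRNA, which pairs with CTACCTC in a message. All 9 mature let-7 and miR-98 names in RefSeq (GRCh38.p14), made from 12 loci, have the same seed. Here 3 of them are printed 5′ to 3′ with the seed in capitals to show that these members of the family differ only outside it.
let-7a-5p: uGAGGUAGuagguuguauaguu
let-7g-5p: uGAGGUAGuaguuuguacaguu
miR-98-5p: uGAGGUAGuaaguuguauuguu

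Every one of the 7 genes held CTACCTC in the 3′ UTR of its canonical transcript (GENCODE 44 mapped to GRCh37, the same build as hg19). LIN28B, HMGA2 and IGF2BP1 held 4 matches each, and LIN28A, HMGA1, IGF2BP2 and IGF2BP3 held 1 each. The 4 matches of HMGA2, the gene with the largest change, and the single matches of HMGA1, IGF2BP2 and IGF2BP3, are printed on the strand of the message with the seed match in capitals.
HMGA2, chr12:66357078-66357100, plus strand: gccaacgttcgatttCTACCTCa
HMGA2, chr12:66358313-66358335, plus strand: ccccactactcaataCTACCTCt
HMGA2, chr12:66358725-66358747, plus strand: ttgacttgcaaagacCTACCTCc
HMGA2, chr12:66359578-66359600, plus strand: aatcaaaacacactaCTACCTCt
HMGA1, chr6:34213606-34213628, plus strand: tcctctgttcacaaaCTACCTCt
IGF2BP2, chr3:185362008-185362030, minus strand: aacacacagaagaagCTACCTCa
IGF2BP3, chr7:23351414-23351436, minus strand: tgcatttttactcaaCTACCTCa
A match followed by A is the form usually bound best, and in HMGA2 only the match closest to the stop codon, at base 21 of the 3′ UTR, had it. IGF2BP1 had 3 such matches of its 4, LIN28B had 2 of 4, and the match in HMGA1 was followed by T. Among 3′ UTRs of like length (80% to 125% of the gene's own), 4 or more matches were rare. They were found in 0.0418% of 2391 for HMGA2, 0.124% of 1616 for LIN28B and 0.383% of 783 for IGF2BP1. Each of these shares rests on very few 3′ UTRs. At least 1 match was more frequent. It was found in 12.1% of the 2651 3′ UTRs of a length like that of IGF2BP3 and in 8.68% of the 2582 of a length like that of HMGA1. A match is a run of letters and does not show that let-7 was bound.

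**Figure D1:**
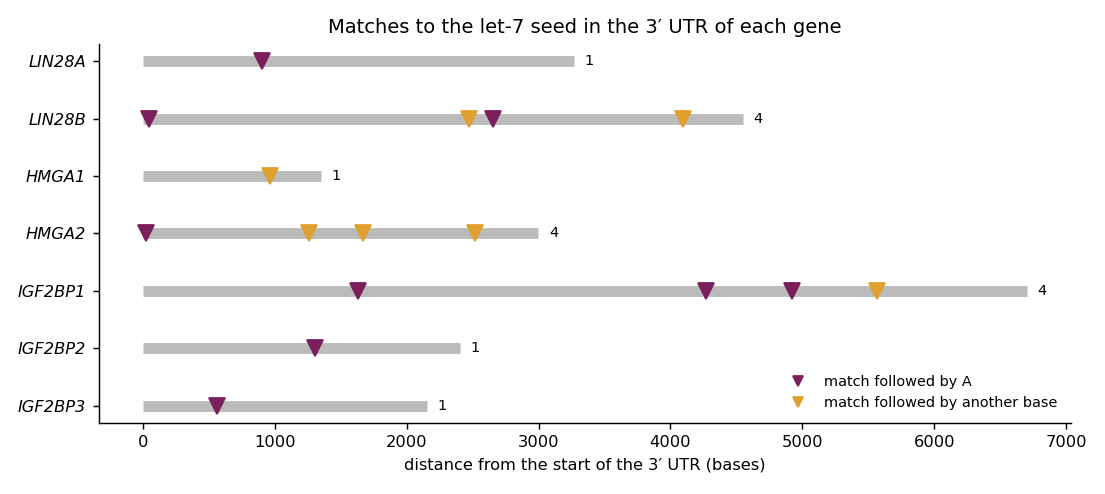
The grey bars are the 3′ UTRs of the 7 genes, drawn to scale in bases from the stop codon, and each triangle is a CTACCTC match, coloured by the base after it. LIN28B, HMGA2 and IGF2BP1 carry 4 matches each and the other genes 1 each.

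Of the 7 genes, 5 passed an FDR of 0.01. HMGA2, HMGA1, IGF2BP1 and IGF2BP2 were lower in OV3/COX1KD cells, IGF2BP3 was slightly higher, and neither LIN28 gene passed. HMGA2 fell most, to 35.5% of the OV3/SCR level, and the others that passed moved by at most 1.44-fold. In these bulk libraries, fewer cells expressing a gene and less RNA per cell cannot be told apart. Calls were frequent in this comparison, since 47.9% of the tested genes passed the same threshold, 22.1% lower and 25.8% higher. HMGA2 was the only member that also passed a fold change above 2.5, which 2.34% of the tested genes did in the lower direction. Groups did not overlap for 6 of the 7 members and for 63.2% of the tested genes.

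**Figure D2:**
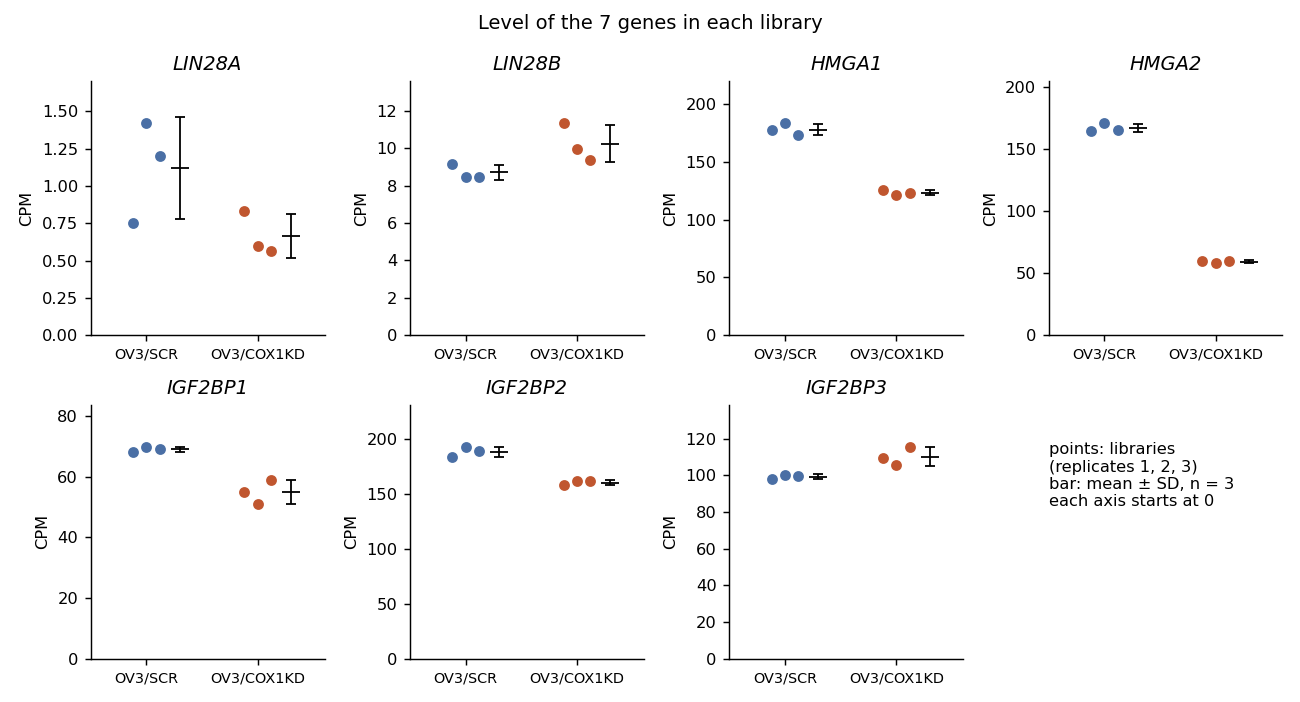
Each panel shows 1 gene, with its level in CPM on an axis from 0, points for the libraries of OV3/SCR (blue) and OV3/COX1KD (orange) and bars for the mean ± SD of 3 libraries. The groups are far apart for HMGA2 and HMGA1, close together for IGF2BP2 and IGF2BP3, and overlap only for LIN28A.

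HMGA2 lies at chr12:66218240-66360071 on the plus strand. It had 4381, 4443 and 4280 counts in OV3/SCR replicates 1, 2 and 3 and 1505, 1460 and 1590 in OV3/COX1KD replicates 1, 2 and 3. The 3 OV3/COX1KD libraries were all far below the 3 OV3/SCR libraries, and libraries of a condition lay close together, at 167 ± 3.26 CPM in OV3/SCR and 59.2 ± 0.855 CPM in OV3/COX1KD (SD, n = 3 each). The log2 fold change was −1.49 (SE 0.034, FDR 1.61e-17, edgeR), a 2.82-fold decrease that ranked 20 of 17309 genes by FDR and 498 by size of change. Over 12 alternative settings and left-out libraries it lay between −1.57 and −1.47.

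A transcript from the opposite strand of the HMGA2 locus was also lower. HMGA2-AS1, a long noncoding RNA listed in the table as RP11-366L20.2, shares 384 exon bases with HMGA2, or 2.55% of its exons. It had 53, 89 and 71 counts in OV3/SCR and 31, 24 and 33 in OV3/COX1KD, with no overlap (log2 fold change −1.24, SE 0.22, FDR 6.26e-05, edgeR). RPSAP52, a transcribed pseudogene that overlaps HMGA2 on the opposite strand without sharing exon bases, had 9, 14 and 11 counts against 2, 4 and 1 and was too scarce to be tested. Whether counting used strand is not given in the sources used here, so reads in shared exons cannot be assigned for certain, although HMGA2-AS1 had at most 89 counts against at least 1460 for HMGA2.

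Other genes around HMGA2 were also measured. The window of 2 Mb on either side held 17 tested genes whose average log2 CPM reached 1. Their median log2 fold change was 0.011, 5 of them were higher and 5 lower, and none fell as far as HMGA2. The lowest of them was HMGA2-AS1 itself.

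HMGA1 lies at chr6:34204650-34214008 on the plus strand. It had 4727, 4780 and 4482 counts in OV3/SCR and 3173, 3048 and 3273 in OV3/COX1KD. All OV3/COX1KD libraries were below all OV3/SCR libraries, at 124 ± 2.30 against 178 ± 5.07 CPM (SD, n = 3 each). The level fell to 69.4% (log2 fold change −0.53, SE 0.033, FDR 4.39e-11, edgeR). Its processed pseudogenes held few reads, at most 18 counts in any library for HMGA1P1, HMGA1P2, HMGA1P3, HMGA1P4 and HMGA1P8, against 3048 to 4780 for HMGA1. The 48 tested genes within 2 Mb had a median of 0.023, and 3 of them lay below HMGA1.

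The 95% intervals of the log2 fold changes of HMGA2 (−1.56 to −1.42) and HMGA1 (−0.60 to −0.46) did not overlap. The log2 ratio of HMGA1 to HMGA2 counts within a library, which does not depend on scaling between libraries, was 0.11, 0.11 and 0.067 in OV3/SCR and 1.08, 1.06 and 1.04 in OV3/COX1KD. The groups were wide apart, by 0.97, with SDs of 0.024 and 0.017. An exact two-sided permutation test gave p = 0.1, the smallest that 3 against 3 libraries allow, and 0.125 after Benjamini-Hochberg adjustment over 5 pairs of family members, so no pair could pass 0.05.

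IGF2BP1 lies at chr17:47074747-47133507 on the plus strand. It had 1818, 1816 and 1782 counts in OV3/SCR and 1379, 1277 and 1565 in OV3/COX1KD. OV3/COX1KD libraries were all lower and more spread, at 54.8 ± 3.89 CPM against 68.9 ± 0.745 CPM (SD, n = 3 each). The log2 fold change was −0.33 (SE 0.045, FDR 3.67e-06, edgeR). Around it, 54 tested genes within 2 Mb had a median of 0.077, and 7 lay below IGF2BP1.

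IGF2BP2 lies at chr3:185360918-185542830 on the minus strand. Its counts were 4887, 5018 and 4889 in OV3/SCR and 3977, 4043 and 4306 in OV3/COX1KD, and the groups did not overlap. It was at 188 ± 4.67 CPM in OV3/SCR and 160 ± 2.00 CPM in OV3/COX1KD (SD, n = 3 each), a log2 fold change of −0.23 (SE 0.031, FDR 2.60e-06, edgeR). A fall of this size is small, and 9751 is its rank by size of change among 17309 genes. The antisense transcript IGF2BP2-AS1, listed as C3orf65, had at most 10 counts in a library.

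IGF2BP3 lies at chr7:23349828-23510110 on the minus strand. Its counts were 2607, 2614 and 2577 in OV3/SCR and 2759, 2640 and 3074 in OV3/COX1KD. After scaling, the groups did not overlap, at 99.3 ± 1.31 CPM against 110 ± 5.03 CPM (SD, n = 3 each). The log2 fold change was 0.15 (SE 0.037, FDR 0.00166, edgeR), the smallest change among the 7 genes. The call was lost with scaling by total counts only (0.072, FDR 0.0947), without OV3/SCR replicate 1 (FDR 0.0119) and without OV3/COX1KD replicate 3 (FDR 0.0161). MALSU1, a mitochondrial ribosome assembly factor on the opposite strand, shares 1521 bases with IGF2BP3 (17.8% of its exons) and was higher as well, with 750, 665 and 736 counts against 827, 865 and 939 (log2 fold change 0.32, FDR 3.67e-05, edgeR), and its part in the IGF2BP3 counts was not tested.

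Within each library, the IGF2BP genes were also compared with each other. The log2 ratio of IGF2BP1 to IGF2BP3 counts was −0.52, −0.53 and −0.53 in OV3/SCR and −1.001, −1.05 and −0.97 in OV3/COX1KD, a difference of −0.48. For IGF2BP2 to IGF2BP3 it was 0.91, 0.94 and 0.92 against 0.53, 0.61 and 0.49, a difference of −0.38. Neither pair of groups overlapped, and each gave p = 0.1 and 0.125 after adjustment by the exact permutation test. The ratio of IGF2BP1 to IGF2BP2 did not separate the conditions, with a difference of −0.10, overlapping groups and an exact p of 0.2.

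**Figure D3:**
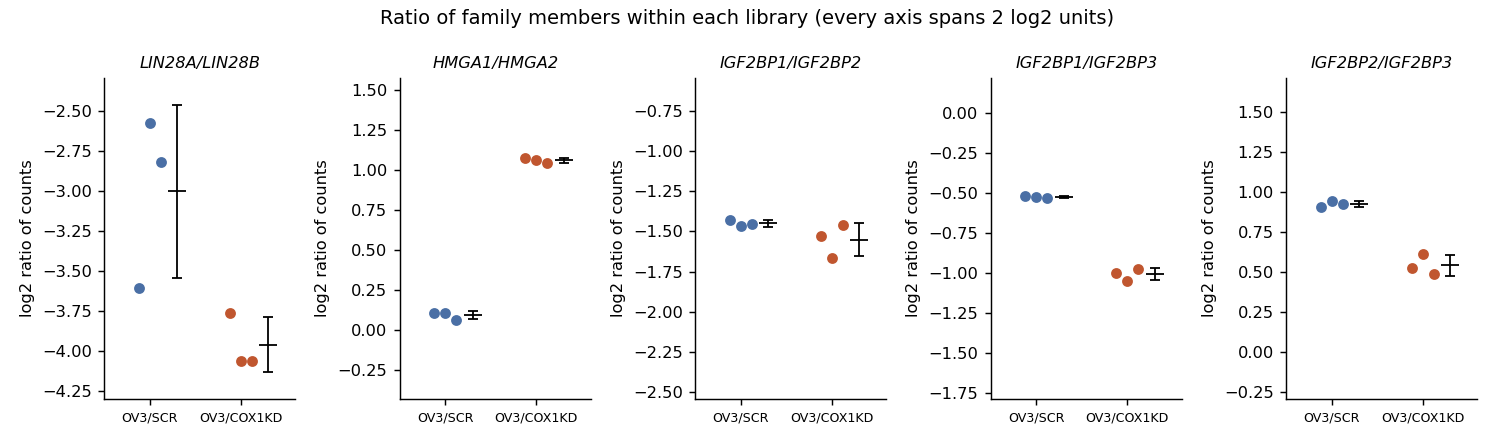
Each panel shows the log2 ratio of the counts of 2 genes of a family in the 3 libraries of OV3/SCR (blue) and OV3/COX1KD (orange), with mean ± SD, on axes that all span the same number of log2 units. HMGA1/HMGA2 rises by 0.97, IGF2BP1/IGF2BP3 and IGF2BP2/IGF2BP3 fall by 0.48 and 0.38, and the groups overlap for IGF2BP1/IGF2BP2.

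LIN28B lies at chr6:105384491-105531207 on the plus strand. It had 244, 221 and 219 counts in OV3/SCR and 285, 250 and 250 in OV3/COX1KD. The groups did not overlap, but OV3/COX1KD replicates 2 and 3 were close to OV3/SCR replicate 1, and the means were 8.70 ± 0.391 and 10.2 ± 0.994 CPM (SD, n = 3 each). The log2 fold change of 0.23 (SE 0.088, 95% interval 0.046 to 0.42) had an FDR of 0.0310 by edgeR and missed the threshold. The 10 tested genes within 2 Mb of LIN28B had a median of 0.26, about the value of LIN28B, and 6 of them were higher and 1 lower.

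LIN28A, at chr1:26737308-26756219 on the plus strand, was barely expressed. It had 20, 37 and 31 counts in OV3/SCR and 21, 15 and 15 in OV3/COX1KD, and OV3/COX1KD replicate 1 overlapped the lowest OV3/SCR library. At 1.12 ± 0.341 and 0.665 ± 0.147 CPM (SD, n = 3 each) the log2 fold change was −0.75 (SE 0.29, 95% interval −1.35 to −0.15, FDR 0.0309, edgeR). It passed only without OV3/SCR replicate 1, at −0.97 with an FDR of 0.00869. With so few reads, changes of the size measured in HMGA1 were not detectable for LIN28A. The log2 ratio of LIN28A to LIN28B was −3.61, −2.58 and −2.82 in OV3/SCR and −3.76, −4.06 and −4.06 in OV3/COX1KD (exact permutation p = 0.1, 0.125 after adjustment).

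**Figure D4:**
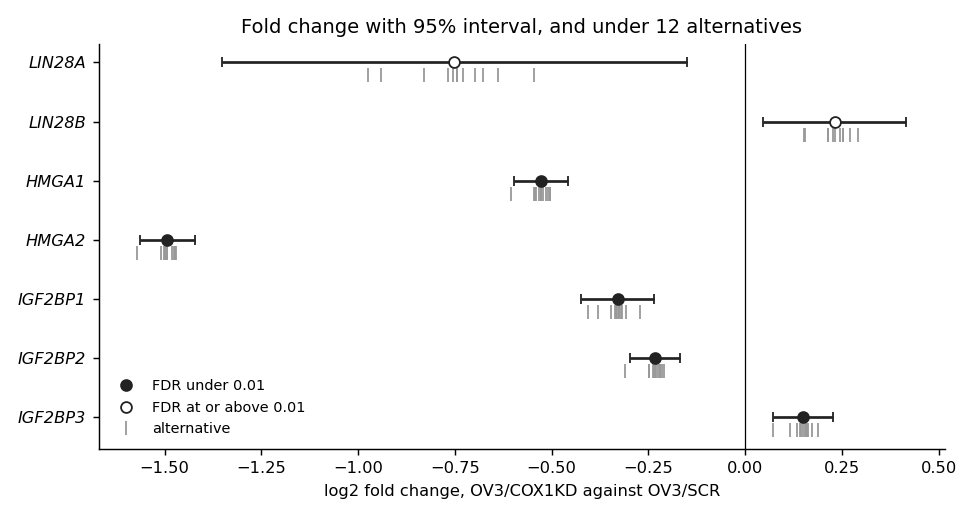
Points are log2 fold changes of OV3/COX1KD against OV3/SCR with 95% intervals, filled where the FDR was under 0.01, and grey ticks are the values under 12 alternatives. HMGA2 stands apart at −1.49, LIN28A has the widest interval, and no gene changes direction under any of the alternatives shown.

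Levels can be compared between the genes only per length of transcript. Per kilobase of all annotated exons, in OV3/SCR HMGA1 was highest with 76.5 ± 2.18 CPM per kb, followed by IGF2BP2 with 35.3 ± 0.876, IGF2BP3 with 11.6 ± 0.153, HMGA2 with 11.1 ± 0.216, IGF2BP1 with 7.16 ± 0.0773, LIN28B with 1.46 ± 0.0658 and LIN28A with 0.283 ± 0.0858 CPM per kb (SD, n = 3 each). No neighbours in this order overlapped, and the closest were IGF2BP3 and HMGA2. In OV3/COX1KD, HMGA2 with 3.93 ± 0.0567 CPM per kb dropped below IGF2BP1 with 5.69 ± 0.404, and the order of the others was as in OV3/SCR.

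The place of HMGA2 depends on the length used. Its annotated exons sum to 15070 bases, while its canonical transcript has 4117. Per kilobase of canonical transcript HMGA2 stood at 40.5 ± 0.792 CPM per kb in OV3/SCR, near IGF2BP2 at 43.98 ± 1.09 and above IGF2BP3 at 23.2 ± 0.306, and at 14.4 ± 0.208 in OV3/COX1KD, below IGF2BP3 at 25.8 ± 1.18 and above IGF2BP1 at 6.23 ± 0.442. HMGA2 thus moved down 1 place past an IGF2BP gene with either length, IGF2BP1 or IGF2BP3. Whichever length was used, HMGA1 was the highest of the 7 and LIN28A the lowest.

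As a share of the summed IGF2BP level per kb of exon, IGF2BP2 made up 65.3% in OV3/SCR and 61.8% in OV3/COX1KD, IGF2BP3 21.5% and 26.5%, and IGF2BP1 13.2% and 11.7%. The HMGA2 share of the summed HMGA level was 12.6% in OV3/SCR and 6.90% in OV3/COX1KD, and 30.4% and 18.3% with canonical lengths. The SDs of these IGF2BP and HMGA shares per kb of exon were at most 1.26 percentage points. The shares with canonical lengths were taken from group means and have no SD. The LIN28A share of the LIN28 level was less stable, from 10.9% to 20.0% over OV3/SCR libraries and from 8.23% to 9.92% over OV3/COX1KD libraries.

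The number of let-7 seed matches did not order the 7 genes. Of the 3 with 4 matches, HMGA2 fell by 1.49 and IGF2BP1 by 0.33 on the log2 scale, while LIN28B stood at 0.23 without a call. The 4 with 1 match included HMGA1 at −0.53 and IGF2BP3 at 0.15. Among all tested genes, the median log2 fold change was 0.030 for 11885 genes with no match, 0.0069 for 1304 with 1, 0.066 for 150 with 2 and −0.042 for 33 with 3 or more, or −0.017 for the 30 of these that were not members. HMGA2 had the lowest value of the 33, IGF2BP1 the seventh lowest. Just above HMGA2 were LRRC7 at −0.86, IGDCC3 at −0.81, both without a call, and FIGN at −0.58 (FDR 5.17e-10, edgeR). NYNRIN at 0.93 was highest. These medians lay well within the interquartile ranges of each other and are given as descriptions.

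**Figure D5:**
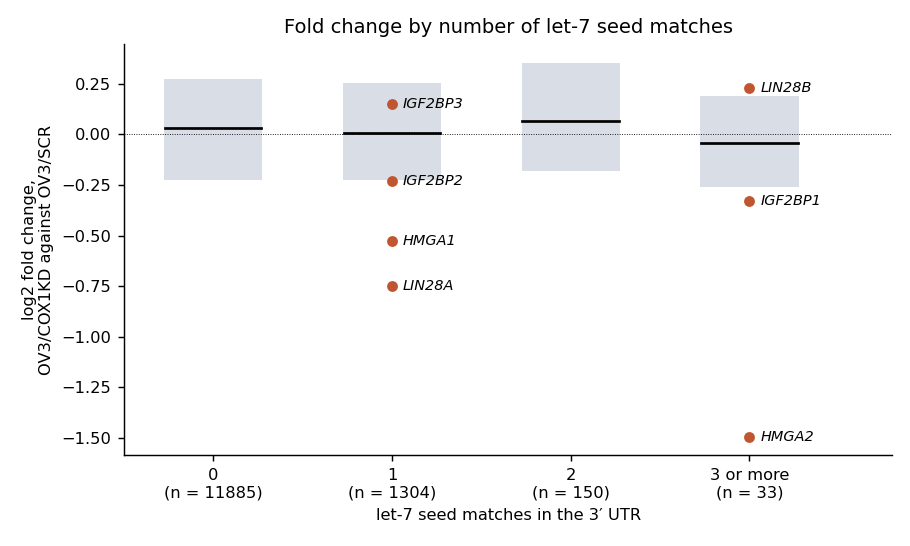
Bars are the interquartile range and black lines the median of the log2 fold change of tested genes by the number of CTACCTC matches in the 3′ UTR, and orange points are the 7 genes. The 4 medians lie between −0.042 and 0.066. In the class of 3 or more matches, HMGA2 and IGF2BP1 lie below the bar and LIN28B above it. In the class of 1 match, LIN28A, HMGA1 and IGF2BP2 lie below the bar and IGF2BP3 inside it.

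Genes of related pathways are counted beside the background of all tested genes, 47.9% called, 25.8% higher and 22.1% lower. Of 18 genes of microRNA maturation and silencing, 3 were higher and 7 lower, with a median log2 fold change of −0.061 beside −0.0087 over all tested genes. EIF2C3 (the Argonaute AGO3) was at −0.46, DGCR8, the partner of DROSHA, at −0.40, the helicase DDX5 at −0.36, and TNRC6C, an Argonaute partner, at 0.41. The 3 higher genes were none with total counts only and 6 without OV3/COX1KD replicate 2. DICER1, at 0.070, had no call. Of 5 genes that act with LIN28 or its relatives, TRIM25 was higher at 0.14 and ZCCHC6 (TUT7, a terminal uridylyltransferase) lower at −0.21, and neither call was stable. TRIM25 lost it with total counts only and when replicate 1 of either condition or OV3/SCR replicate 3 was left out, and ZCCHC6 with DESeq2 and when replicate 2 of either condition or OV3/SCR replicate 3 was left out. TRIM71, a let-7 target and oncofetal gene itself, had 4 to 12 counts and no call.

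Of the 9 let-7 precursors and host genes in the table, 4 could be tested. The 3 called were hosts and were higher. LINC00478, host of let-7c, had 306, 303 and 259 counts in OV3/SCR and 417, 415 and 398 in OV3/COX1KD with no overlap (log2 fold change 0.54, FDR 5.60e-06, edgeR). WDR82, which holds let-7g in an intron, was at 0.29 (FDR 1.91e-07), and HUWE1, host of let-7f-2 and miR-98, at 0.26 (FDR 0.00535), although its OV3/COX1KD replicate 2, at 522 CPM, lay below all 3 OV3/SCR libraries, at 529 to 565 CPM, while replicates 1 and 3 were at 720 and 707 CPM. The 3 higher hosts became 2 in 8 of the 12 alternatives (total counts only, the minimum of 10 counts, DESeq2, and without any 1 OV3/SCR library or OV3/COX1KD replicate 1 or 3). MIRLET7D, with 14 to 27 counts, had no call at −0.28. The level of a host message is not the level of its mature microRNA.

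Of 31 tested genes reported as let-7 targets outside the 7 members, 14 were lower, 5 higher and 12 without a call, beside 22.1% lower and 25.8% higher over all tested genes, with a median of −0.15. The carboxypeptidase gene CPA4 was at −3.55, the cyclin CCND1 at −1.52, CDK6, the kinase it activates, at −0.96, and the insulin receptor INSR at 1.15, all called. MYC, at 0.063 (FDR 0.194, edgeR), had no call. The count of lower targets was 8 with DESeq2 and 9 without either OV3/SCR replicate 1 or 2. The count of higher targets was 2 with total counts only and without OV3/SCR replicate 2, and 3 without OV3/COX1KD replicate 1 or 3.

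Of 10 tested messages known to be bound by IGF2BP proteins, 6 were higher, 2 lower and 2 without a call, beside 25.8% higher and 22.1% lower over all tested genes, with a median of 0.14. The 6 became 4 with total counts only and without OV3/SCR replicate 2. IGF2, the growth factor message for which the family is named, had 53, 68 and 62 counts in OV3/SCR and 115, 107 and 113 in OV3/COX1KD, a log2 fold change of 0.90 (FDR 1.60e-05, edgeR). H19, the noncoding RNA beside it, was at 0.83, and PABPC1, the poly(A)-binding protein, at 0.64. CD44, a hyaluronan receptor, was lower at −1.01, and ACTB at −0.14. Of 7 tested genes reported to be regulated by HMGA proteins, in whichever direction, 5 were higher and 2 had no call, with a median of 0.17. INSR at 1.15 and the repair gene ERCC1 at 0.41 led them, followed by the cyclins CCNB2 at 0.28 and CCNA2 at 0.14. The 5 became 3 with total counts only.

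Genes whose profile was most like that of each member were found by the root mean square distance of centred log2 CPM over the 6 libraries, among 13012 genes. For HMGA2 they were NRCAM, a cell adhesion molecule, at a distance of 0.025 and ARHGAP23 at 0.029. HMGA1 lay closest to C11orf84 and RRP12, IGF2BP1 to DCAF12 and ARNT2, IGF2BP2 to ESF1 and ARHGEF7, and IGF2BP3 to CDCA2 and DNAJA2, all at distances of 0.011 to 0.024. For LIN28B they were C8orf42 and SIDT2, at 0.021 and 0.030. The nearest to LIN28A, EBLN2 and RP5-894A10.2, were farther, at 0.15 each. Of these nearest genes, ARNT2 (FDR 0.0144, edgeR) and SIDT2 (FDR 0.0122, edgeR) had no call.

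RefSeq promoters (GRCh38.p14, 250 bases before to 50 after a start) were found for 4 of the 7 genes. Those of IGF2BP2 and IGF2BP3 are shown because these related genes were called in opposite directions. In each, capitals mark matches on either strand to CACGTG (E-box), GGGCGG (GC box), TGACGTCA (CRE) or TGANTCA (AP-1).
IGF2BP2, chr3:185824993-185825292, minus strand: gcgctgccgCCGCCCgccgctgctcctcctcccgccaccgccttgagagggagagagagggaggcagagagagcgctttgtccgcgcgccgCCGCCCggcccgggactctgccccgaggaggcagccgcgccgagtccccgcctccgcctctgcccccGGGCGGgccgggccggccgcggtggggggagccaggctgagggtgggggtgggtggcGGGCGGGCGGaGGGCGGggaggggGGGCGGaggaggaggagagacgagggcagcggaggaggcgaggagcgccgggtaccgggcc
IGF2BP3, chr7:23470442-23470741, minus strand: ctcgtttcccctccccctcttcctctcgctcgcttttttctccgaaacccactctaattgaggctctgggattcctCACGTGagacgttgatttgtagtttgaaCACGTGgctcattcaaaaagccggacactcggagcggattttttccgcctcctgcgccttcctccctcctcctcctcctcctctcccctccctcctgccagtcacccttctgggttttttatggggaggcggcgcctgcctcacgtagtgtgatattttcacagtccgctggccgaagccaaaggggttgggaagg
The IGF2BP2 window held 7 GC boxes, 2 of them overlapping, no E-box and 80.7% G and C. The IGF2BP3 window held 2 E-boxes, no GC box and 56.3% G and C. Of 35116 promoters of this length, 45.0% held a GC box and 7.26% an E-box, 1.85% a CRE and 7.71% an AP-1 match. The other listed start of IGF2BP2 had no GC box and 1 AP-1 match. HMGA1, called lower, had 5 GC boxes and no E-box at 1 listed start and no match at the other. LIN28B, without a call, had 2 GC boxes at 1 start and 1 E-box at the other. Whether these matches bear on the direction of a call was not tested. No binding was measured in these windows.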

How the data were processed

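RNA-seq libraries came from 6 cultures of OVCAR-3 clones, 3 per condition, grouped by GEO's labels. The authors mapped the reads with TopHat2 (hg19), and HTSeq gave the deposited counts per gene, which were not normalized. The annotation and strand setting are not given in the sources used here. Counts were tested with edgeR 4.0.16 in R 4.3.3 (TMM, filterByExpr, quasi-likelihood test, Benjamini-Hochberg over 17309 genes), and a call is an FDR under 0.01. The biological coefficient of variation was 3.21%, the spread between passages. No libraries were duplicates, since the counts of replicates differed by a chi-square of at least 1.83 per degree of freedom. Scripts were tested on simulated data. Members and lists were chosen with earlier results of these data known. Named genes are the members, PTGS1, the genes nearest in profile to each member and at most 4 called genes per list by size of change. Those that touch a member (pseudogenes, overlapping genes, let-7 hosts, TRIM71, MYC, IGF2 and H19) are named with or without a call. Exceptions, named after their values were seen, are the lowest and highest of the genes with 3 or more let-7 matches, DICER1, MIRLET7D, ACTB, PAX8 and SOX2. Some genes of the lists are not reported here by name. Locations are from GENCODE 44 lifted to GRCh37, which held 33556 of the 34811 genes, and 3′ UTRs were searched in 19085 canonical transcripts. Alternatives were RLE factors, total counts, no filter, DESeq2 1.42.0, a minimum of 10 counts in each library, the replicate number as a block, and each library left out. The order by canonical transcript length was added after seeing the data.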

Additional observations from a re-analysis of the deposited data

How the results depend on the processing

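HMGA1, HMGA2, IGF2BP1, IGF2BP2 and LIN28B kept their direction and their side of the threshold in all 12 alternatives, and LIN28A and IGF2BP3 kept their direction. No member was higher with total counts only (IGF2BP3 0.072, FDR 0.0947), nor without OV3/SCR replicate 1 or OV3/COX1KD replicate 3, so the count of members higher ranged from 0 to 1 over left-out libraries. IGF2BP3 ranged from 0.12 to 0.19 and LIN28A from −0.97 to −0.55 over left-out libraries. Genes lower with a fold change above 2.5 numbered 405, and 228 with at least 10 counts in every library, a setting that tests fewer genes. Deviations of same-numbered libraries correlated at 0.0015, 0.048 and 0.023, and those of libraries with different numbers at −0.042 to 0.020. No clear pairing by number was seen, but values this small cannot exclude it. By level in OV3/SCR, 3 of the 7 genes kept their place with CPM without length and 5 with canonical transcript length. With the replicate number as a block 8233 genes were called against 8293 and the members kept their calls (HMGA2 −1.49, IGF2BP3 0.15), while the 5 family ratios gave p = 0.25, the smallest 3 exact sign flips allow. Low counts limit LIN28A, with at most 37 per library, and the small spread between passages says nothing of other clones.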

Other observations

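Of 9 other oncofetal genes tested, 3 were higher, 3 lower and 3 without a call, beside 25.8% higher and 22.1% lower over all tested genes. The lower count was 2 in 8 of the 12 alternatives, among them without any 1 OV3/SCR library and without OV3/COX1KD replicate 3. AFP, the fetal serum protein alpha-fetoprotein, had 47, 47 and 49 counts in OV3/SCR and 9, 7 and 7 in OV3/COX1KD, with no overlap (log2 fold change −2.59, SE 0.27, FDR 7.26e-08, edgeR). TPBG, the trophoblast glycoprotein, was lower at −0.84. PEG10, an imprinted gene, was higher, from 8618, 8473 and 8745 counts to 18555, 15773 and 19440 (1.09, FDR 8.50e-14). The higher genes also included IGF2 and H19, described with the messages bound by IGF2BP proteins.

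Of 6 tested pluripotency genes, 1 was higher and 1 lower. DNMT3B, a DNA methyltransferase, was lower at −0.22 (FDR 0.000279, edgeR), and DPPA2 higher at 0.75 (FDR 0.00983) with 18 to 28 counts against 36 to 39, a call lost in 9 of 12 alternatives. SOX2 had 2725 to 2922 counts in every library and no call. The lower count was 2 without OV3/COX1KD replicate 2.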
